A study of Mus musculus with 11 samples.

Results

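The transcripts described here encode the subunits of the proteasome and were taken as every gene of the deposited count table whose symbol consists of Psma, Psmb, Psmc or Psmd and a number. The rule found 39 genes among the 24421 of the table. They comprised 14 standard subunits of the core particle (7 alpha and 7 beta), 5 cell type specific variants of core subunits (Psma8, Psmb8, Psmb9, Psmb10 and Psmb11), 17 subunits of the regulatory particle (6 ATPases and 3 other subunits of the base, 8 subunits of the lid) and 3 chaperones that assemble the base (Psmd5, Psmd9 and Psmd10). The 14 core and 17 regulatory subunits are called the 31 standard subunits below. They were measured by RNA-seq of total RNA in 11 mouse libraries of 4 groups. The groups were 2-cell embryos from Daxx f/f; Zp3-cre mothers (maternal knockout embryos, 2 libraries, replicates 2 and 3), 2-cell embryos from Daxx f/f mothers (control embryos, 3 libraries), ovulated oocytes at metaphase II of meiosis (MII) from Daxx f/f; Zp3-cre females (knockout oocytes, 3 libraries) and MII oocytes from Daxx f/f females (control oocytes, 3 libraries). Every mother was over 8 weeks old, was of mixed C57BL/6J and 129/Sv background, was primed with PMSG and hCG (5 IU each), and carried the floxed allele Daxx tm2Led in both copies. The knockout mothers alone carried Tg(Zp3-cre)93Knw, a Cre recombinase under the promoter of the zona pellucida gene Zp3, which acts in growing oocytes, so that loss of Daxx and presence of the transgene cannot be told apart. Oocytes were taken 20 hours after hCG. Embryos of both genotypes were made by in vitro fertilization with JF1 sperm and taken 33 hours later, so that each had a paternal genome from JF1. The titles of the maternal knockout embryos read m-z+, that is, without maternal and with zygotic Daxx. For each library 50 oocytes or embryos of 2 to 3 females were pooled.

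The proteasome degrades proteins that carry ubiquitin chains. Its core particle is a barrel of stacked alpha and beta rings with the proteolytic sites on 3 of the beta subunits. The regulatory particle caps the barrel: its base holds the ATPases that unfold the substrate and receptors that bind ubiquitin, and its lid holds the deubiquitinase that removes the chain. An MII oocyte is transcriptionally silent and lives on stored maternal transcripts, many of which are cleared while the genome of the mouse embryo is activated by the 2-cell stage. The Daxx protein loads the histone variant H3.3 onto DNA.

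The libraries held 17978192 to 39798586 counted reads. Levels are counts per 1000000 counted reads (CPM) or, where genes are compared with each other, CPM per kilobase of the deposited gene width (RPKM). Daxx stood at 22.8 and 25.5 CPM in the maternal knockout embryos, against 35.2 to 46.7 CPM in the control embryos, and at 7.84 to 8.40 CPM in the knockout oocytes, against 86.2 to 97.2 CPM in the control oocytes. The 6 listed markers of the 2-cell stage found in the table summed to 427 to 602 CPM in the embryo libraries and to 2.54 to 4.73 CPM in the oocyte libraries, and 8 oocyte markers summed to 1477 to 1967 CPM in embryos and to 9594 to 10020 CPM in oocytes. Of the listed markers of other cells, 9 of cumulus and granulosa cells summed to 11.3 to 16.2 CPM in embryos and 26.8 to 31.5 CPM in oocytes (0 to 4 of the 9 at 0 in a library), and 6 of sperm and spermatids to 0.612 to 4.54 CPM in embryos and 2.67 to 7.62 CPM in oocytes (0 to 3 of the 6 at 0). The sperm and spermatid sum differed between genotypes in oocytes, at 6.30 to 7.62 CPM in the knockout oocytes against 2.67 to 3.62 CPM in the control oocytes; Prm2, a protamine, averaged 5.46 ± 0.74 CPM in the knockout oocytes and 1.85 ± 0.38 CPM in the control oocytes (SD, n = 3 each). Their part in the results below was not tested.

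Proteasome subunit transcripts took a smaller share of the reads in 2-cell embryos than in oocytes of either genotype. The 39 genes together held 0.148% and 0.135% of the reads of the maternal knockout embryos, 0.139% to 0.163% in the control embryos, 0.287% to 0.305% in the knockout oocytes and 0.280% to 0.294% in the control oocytes. No embryo library reached the lowest oocyte library. A CPM value is a share of a pool's reads, and total RNA per oocyte or embryo was not measured here. Less of a transcript, more of other RNA and RNA of other cells in a pool cannot be told apart. This holds here and in the comparisons that follow, where a rise or fall is one of the share.

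**Figure D1:**
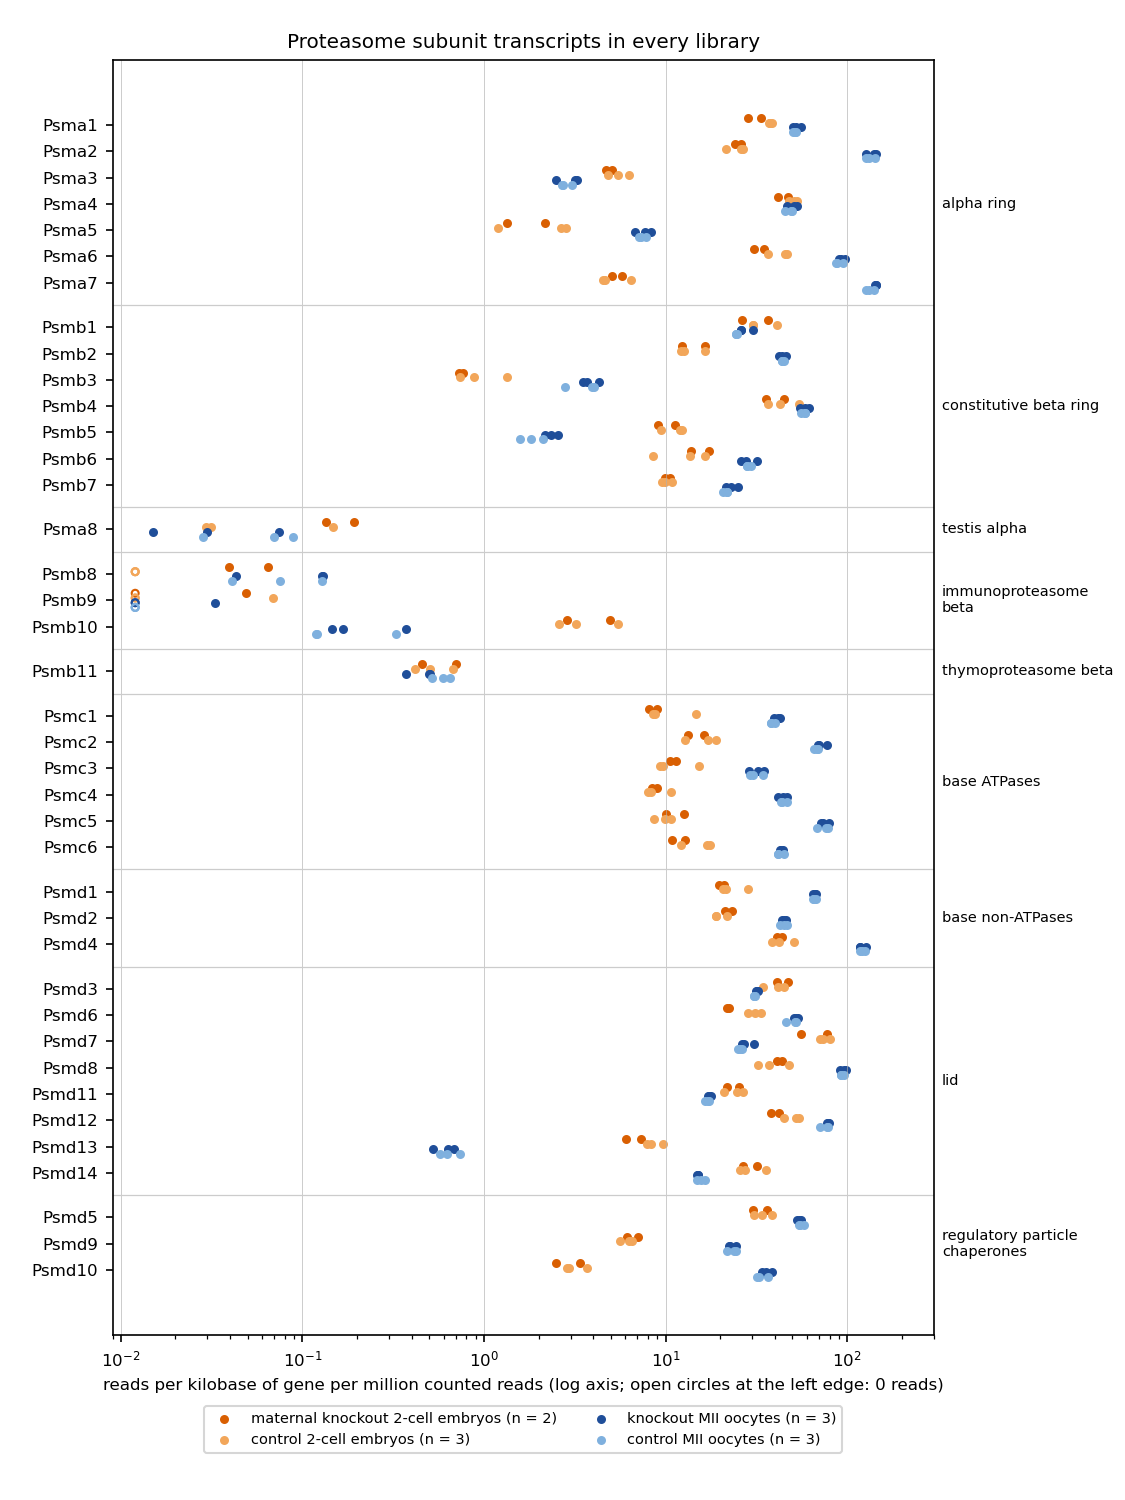
Level of each of the 39 proteasome genes in each of the 11 libraries, in RPKM on a log axis, grouped by subcomplex; open circles at the left edge mark 0 reads. The base ATPases of the embryos lie left of those of the oocytes without overlap, while Psmd13, Psmb5 and Psmb10 lie to the right, and the points of both genotypes of a stage fall on each other for most genes.

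Control embryos were compared with control oocytes to describe the change between the stages without the knockout. All 31 standard subunits passed the filter on low counts, and in edgeR's quasi-likelihood test with Benjamini-Hochberg adjustment 8 were higher and 22 lower in control embryos at adjusted p under 0.05, with Psma4 not called. Over all genes tested, 43.1% were higher and 40.0% lower in this comparison. The median log2 change was -1.17 over the standard subunits and 0.07 over all genes tested. At least 2-fold, 3 standard subunits were higher and 18 lower, beside 33.0% and 28.5% of all genes tested. Of the whole family, 36 of 39 genes were tested, and 9 were higher and 25 lower; the sets of libraries did not overlap in CPM for these same numbers of genes, beside 44.3% (higher) and 40.7% (lower) of all genes.

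Most subunits of both particles were lower in control embryos, and members of both moved in either direction. Of the 14 core subunits 3 were higher and 10 lower, with a median log2 change of -1.10, and of the 17 regulatory subunits 5 were higher and 12 lower, with a median of -1.29. All 9 base subunits that match the symbol rule were lower in control embryos, while 5 of the 8 matching lid subunits were higher. Adrm1 and Sem1, partners of the base and lid, do not match the rule. They were not called and are described further below.

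In the alpha ring, which forms the outer wall and gate of the barrel, 5 of 7 genes were lower in control embryos (Psma1, Psma2, Psma5, Psma6 and Psma7) and Psma3 was higher. Psma7 (chromosome 2, 180036367 to 180042464, GRCm38) stood at 8.02 and 9.13 CPM in the maternal knockout embryos, at 10.2, 7.21 and 7.34 CPM in the control embryos, at 229, 229 and 226 CPM in the knockout oocytes and at 210.5, 224 and 201 CPM in the control oocytes. Each of the 5 embryo libraries lay more than an order of magnitude below each of the 6 oocyte libraries. The control difference was 26.2-fold lower in embryos (log2 change -4.71 ± 0.15 SE, adjusted p = 1.11e-10), rank 15532 of 15577 genes ordered from the highest change to the lowest. Psma2 fell by 2.45 on the log2 scale (± 0.11 SE) and Psma5 by 1.76 (± 0.27 SE). Psma3 (chromosome 12, 70969283 to 70995877) had 11.2 and 12.1 CPM in the maternal knockout embryos, 13.2, 11.6 and 15.1 CPM in the control embryos, 5.97, 7.82 and 7.60 CPM in the knockout oocytes and 6.57, 6.46 and 7.34 CPM in the control oocytes. It was the alpha gene that rose, by 0.94 on the log2 scale (± 0.16 SE, adjusted p = 0.000164), with no overlap between stages. Psma4 differed by 0.05 between control stages, with a 95% interval of the log2 change from -0.17 to 0.27.

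In the constitutive beta ring, the inner rings with the proteolytic sites, 5 of 7 genes were lower in control embryos (Psmb2, Psmb3, Psmb4, Psmb6 and Psmb7) and Psmb1 and Psmb5 were higher. The 3 proteolytic subunits did not move together. Psmb5 (chromosome 14, 54614120 to 54617995), the chymotrypsin-like site, had 9.84 and 7.87 CPM in the maternal knockout embryos, 8.18, 10.4 and 10.7 CPM in the control embryos, 2.23, 1.89 and 2.04 CPM in the knockout oocytes and 1.38, 1.58 and 1.85 CPM in the control oocytes. It was 5.95-fold higher in control embryos (log2 change 2.57 ± 0.21 SE, adjusted p = 2.89e-07), and every embryo library lay above every oocyte library. Psmb6 (chromosome 11, 70525324 to 70527858), the caspase-like site, had 14.2 and 17.9 CPM in the maternal knockout embryos, 8.84, 14.2 and 17.0 CPM in the control embryos, 27.1, 32.9 and 28.7 CPM in the knockout oocytes and 30.5, 29.2 and 29.0 CPM in the control oocytes. Psmb7 (chromosome 2, 38588046 to 38643952), the trypsin-like site, had 34.2 and 32.2 CPM in the maternal knockout embryos, 32.0, 30.8 and 35.2 CPM in the control embryos, 69.3, 80.8 and 73.9 CPM in the knockout oocytes and 70.5, 70.5 and 67.1 CPM in the control oocytes. These were 2.25-fold and 2.16-fold lower in control embryos (adjusted p = 0.000125 for Psmb6 and 6.1e-07 for Psmb7), again without overlap between stages.

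Per length, the levels of the 3 proteolytic subunits were close to each other in control embryos and far apart in control oocytes. Psmb6 averaged 12.9 ± 4.01 RPKM, Psmb5 11.2 ± 1.59 RPKM and Psmb7 10.1 ± 0.71 RPKM in control embryos (SD, n = 3), and the ranges of the 3 genes overlapped. In control oocytes Psmb6 averaged 28.6 ± 0.80 RPKM, Psmb7 21.5 ± 0.61 RPKM and Psmb5 1.84 ± 0.27 RPKM (SD, n = 3), and the ranges of the 3 genes did not overlap. The closeness in embryos depends on the deposited widths, 3230 bases for Psmb7, 1036 for Psmb6 and 871 for Psmb5. Without division by width, these averaged 32.7, 13.4 and 9.77 CPM in control embryos and 69.4, 29.6 and 1.60 CPM in control oocytes, in that order. In the maternal knockout embryos Psmb6 averaged 15.5 ± 2.49 RPKM, above Psmb5 (10.2 ± 1.60 RPKM) and Psmb7 (10.3 ± 0.43 RPKM) in both libraries, and the knockout oocytes had 28.5 ± 2.91, 2.35 ± 0.19 and 23.1 ± 1.79 RPKM of the 3 genes in that order (SD, n = 2 and 3). An annotated microRNA, Mir686, shares 109 exonic bases with Psmb5 on the same strand and was listed at 1.45 to 2.04 CPM in embryos and 0.153 to 0.367 CPM in oocytes; reads of the pair cannot be told apart by strand.

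Of the variant core subunits, Psmb10 was the one called, and the others were low in every group. Psmb10 (chromosome 8, 105935728 to 105938392), which takes the place of Psmb7 in the immunoproteasome, had 6.24 and 3.62 CPM in the maternal knockout embryos, 3.28, 4.08 and 6.99 CPM in the control embryos, 0.471, 0.213 and 0.185 CPM in the knockout oocytes and 0.153, 0.151 and 0.416 CPM in the control oocytes. It was higher in control embryos by 4.25 on the log2 scale (± 0.44 SE, adjusted p = 2.22e-06), a gene that passed the low-count filter through the embryos, since the control oocytes held 5 to 16 reads. Its level in control embryos, 3.77 ± 1.54 RPKM, stayed below that of Psmb7 and averaged above those of the standard subunits Psma5 (2.23 ± 0.89 RPKM) and Psmb3 (0.984 ± 0.31 RPKM; SD, n = 3), with ranges that overlapped for Psma5 and did not for Psmb3. Of 7 listed markers of blood and immune cells, which hold immunoproteasomes, the sum was 4.90 to 13.3 CPM in embryos and 2.11 to 3.48 CPM in oocytes, with 1 to 5 of the 7 at 0 in a library. Most of it was Cd74 in embryos (4.45 to 12.3 CPM) and H2-Aa in oocytes (1.96 to 3.40 CPM), while the leukocyte marker Ptprc was at 0 to 0.0483 CPM in embryos and the haemoglobin gene Hbb-bs at 0 in every library.

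Psmb8 and Psmb9, the other immunoproteasome subunits, and Psma8, which replaces Psma7 in spermatogenic cells, did not pass the low-count filter. Psmb8 had 3 reads in all in the maternal knockout embryos, 0 in the control embryos, 14 in the knockout oocytes and 11 in the control oocytes, and 0 reads of the 60151790 in the control embryos allow up to 0.0499 CPM. Psmb9 had 1 read in each group but the control oocytes, where it had 0 of 110797655 reads, which allow up to 0.0271 CPM. Psma8 had 13 reads in the maternal knockout embryos, 8 in the control embryos, 8 in the knockout oocytes and 12 in the control oocytes. Without the filter, edgeR called Psmb8 lower in control embryos than in control oocytes (adjusted p = 0.0425), a call that rests on 0 against 11 reads, and it called neither Psmb9 (adjusted p = 0.337) nor Psma8 (adjusted p = 0.872). Psmb11, the beta subunit of cortical thymic epithelium, was low but measurable, at 2.96 and 1.93 CPM in the maternal knockout embryos, 1.78, 2.14 and 2.87 CPM in the control embryos, 1.57, 2.13 and 2.14 CPM in the knockout oocytes and 2.52, 2.21 and 2.76 CPM in the control oocytes. Embryos and oocytes of the same genotype overlapped, and the difference between control stages was not called (log2 change -0.16, 95% interval -0.72 to 0.39). The knockout and control oocytes did not overlap, as described further below.

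All 6 ATPases of the base, which form the ring that unfolds and threads the substrate, were at least 2-fold lower in control embryos. Their log2 changes ran from -1.48 (Psmc3) to -2.95 (Psmc5), and each had its 5 embryo libraries below its 6 oocyte libraries. Psmc5 (chromosome 11, 106256185 to 106263112) had 16.1 and 12.8 CPM in the maternal knockout embryos, 12.7, 11.1 and 13.8 CPM in the control embryos, 94.5, 101 and 92.2 CPM in the knockout oocytes and 97.2, 101 and 87.2 CPM in the control oocytes. It was 7.72-fold lower in control embryos (± 0.12 SE on the log2 scale, adjusted p = 6.31e-10). The 3 other base subunits that match the symbol rule moved the same way: the scaffolds Psmd1 and Psmd2 fell by 1.51 and 1.20 on the log2 scale. Psmd4 (chromosome 3, 95032688 to 95042614), a receptor for ubiquitin chains, had 91.0 and 84.9 CPM in the maternal knockout embryos, 80.0, 87.8 and 105 CPM in the control embryos, 245, 262 and 244 CPM in the knockout oocytes and 250.5, 261 and 245 CPM in the control oocytes. It was 2.82-fold lower in control embryos (± 0.10 SE on the log2 scale, adjusted p = 5.1e-08).

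The lid was split. Psmd3, Psmd7, Psmd11, Psmd13 and Psmd14 were higher in control embryos, and Psmd6, Psmd8 and Psmd12 were lower by 0.62 to 1.29 on the log2 scale. Psmd13 (chromosome 7, 140882394 to 140898642), a scaffold subunit, had 13.6 and 11.2 CPM in the maternal knockout embryos, 18.1, 14.6 and 15.4 CPM in the control embryos, 1.18, 1.28 and 0.979 CPM in the knockout oocytes and 1.17, 1.38 and 1.07 CPM in the control oocytes. It was 13.0-fold higher in control embryos (log2 change 3.71 ± 0.20 SE, adjusted p = 6.42e-09). Its exons share 342 bases with those of Sirt3 on the opposite strand; Sirt3 was at 1.91 to 3.17 CPM in embryos and 2.33 to 2.88 CPM in oocytes. Psmd7 (chromosome 8, 107580380 to 107588482), the catalytically inactive partner of the deubiquitinase, had 124 and 89.2 CPM in the maternal knockout embryos, 117, 114 and 129 CPM in the control embryos, 42.4, 48.9 and 43.1 CPM in the knockout oocytes and 42.0, 41.1 and 40.0 CPM in the control oocytes. It was 2.87-fold higher in control embryos (± 0.09 SE on the log2 scale, adjusted p = 1.98e-08). Psmd14 (chromosome 2, 61711694 to 61800376), the deubiquitinase itself, had 41.0 and 49.4 CPM in the maternal knockout embryos, 54.8, 42.4 and 39.4 CPM in the control embryos, 22.9, 23.3 and 23.1 CPM in the knockout oocytes and 23.0, 25.5 and 24.1 CPM in the control oocytes. It was 1.85-fold higher in control embryos (± 0.14 SE on the log2 scale, adjusted p = 0.000103). Both members of the deubiquitinase pair thus had every embryo library above every oocyte library. Psmd3 and Psmd11, further scaffold subunits, rose by 0.36 and 0.49 on the log2 scale.

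The 3 chaperones that build the base fell too. Psmd10 (chromosome X, 140948425 to 140956711) had 3.63 and 4.93 CPM in the maternal knockout embryos, 4.17, 5.38 and 4.30 CPM in the control embryos, 49.7, 56.1 and 52.3 CPM in the knockout oocytes and 47.6, 53.4 and 46.5 CPM in the control oocytes. It was 10.8-fold lower in control embryos (log2 change -3.44 ± 0.15 SE, adjusted p = 1.16e-09). Psmd9 fell by 1.96 and Psmd5 by 0.72 on the log2 scale. The exons of Psmd9 share 1849 bases with a lincRNA, Gm26745, on the opposite strand. In all, exons of 11 of the 39 genes overlap those of another annotated gene, of a protein-coding gene for 6 of them, and how the counting treated strand is not stated in the labels.

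**Figure D2:**
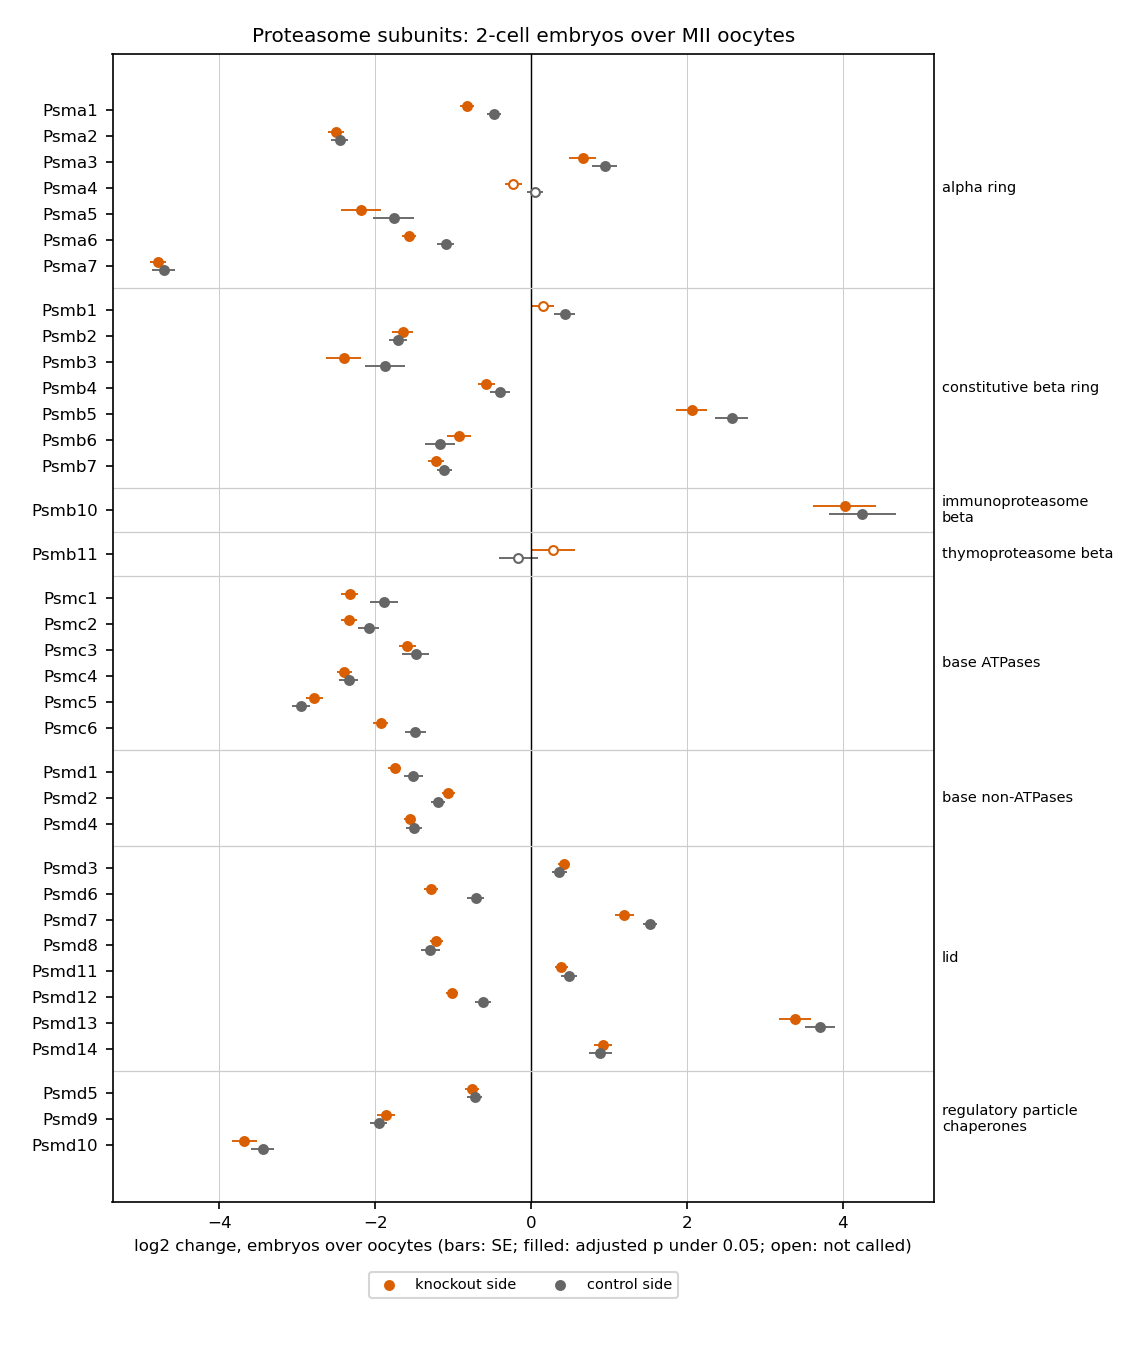
Log2 change of 2-cell embryos over MII oocytes for the 36 members tested, on the knockout side (maternal knockout embryos over knockout oocytes, orange) and the control side (control embryos over control oocytes, grey), with standard errors; filled points had an adjusted p under 0.05. All base ATPases, base non-ATPases and chaperones lie left of 0 on both sides, and Psmd13, Psmb5 and Psmb10 lie farthest to the right.

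Maternal knockout embryos against knockout oocytes repeated the stage comparison in libraries that the control comparison did not use. Here 8 members were higher and 25 lower of 36 tested, beside 42.5% higher and 37.7% lower of all genes tested. The median log2 change of the 31 standard subunits was -1.22, against 0.09 for all genes tested. The same 8 genes were higher and the same 25 lower on both sides, and no gene was called in opposite directions. Psma7 changed by -4.78 ± 0.11 (SE) on the knockout side and by -4.71 ± 0.15 on the control side, Psmd13 by 3.39 ± 0.20 and 3.71 ± 0.20, Psmb5 by 2.06 ± 0.20 and 2.57 ± 0.21. Across the 36 genes, Pearson's r between the sides was 0.991, as a description over genes that share libraries on each side, and the median absolute difference of the log2 changes was 0.24. Psmb1 was called on the control side (log2 change 0.43, adjusted p = 0.00965) and not on the knockout side (0.15, adjusted p = 0.351), a difference that was itself not called in the test of both genotypes and stages below.

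The make-up of the proteasome transcripts differed between the stages more than between the genotypes. Per length, the core particle made up 38.6% ± 0.50 of the summed RPKM of the 31 standard subunits in the maternal knockout embryos (SD, n = 2), 39.3% ± 0.21 in the control embryos, 44.0% ± 0.61 in the knockout oocytes and 43.5% ± 0.50 in the control oocytes (SD, n = 3 each). Every embryo library had a smaller core share than every oocyte library. Within the particles, the alpha ring held 20.9%, 22.5%, 31.8% and 31.3% in the same groups in that order, and the beta ring 17.7%, 16.8%, 12.2% and 12.2%. The base ATPases held 9.51% ± 0.26 in the maternal knockout embryos, 9.58% ± 1.06 in the control embryos, 20.1% ± 0.58 in the knockout oocytes and 20.1% ± 0.47 in the control oocytes. The lid held 39.6% ± 0.65 in the maternal knockout embryos, 39.6% ± 0.62 in the control embryos, 20.8% ± 0.23 in the knockout oocytes and 20.8% ± 0.18 in the control oocytes. Per length, the lid thus had the largest share in every embryo library and the alpha ring in every oocyte library, without overlap of the stages for any of the 5 subcomplexes. Without division by gene width the lid was the largest in the oocyte libraries too (24.9% to 25.5%, beside 22.15% to 23.65% for the alpha ring), and the beta ring overlapped between the stages, at 11.1% to 13.0% in embryos and 10.85% to 11.4% in oocytes. These shares are descriptions of summed levels, with no test.

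**Figure D3:**
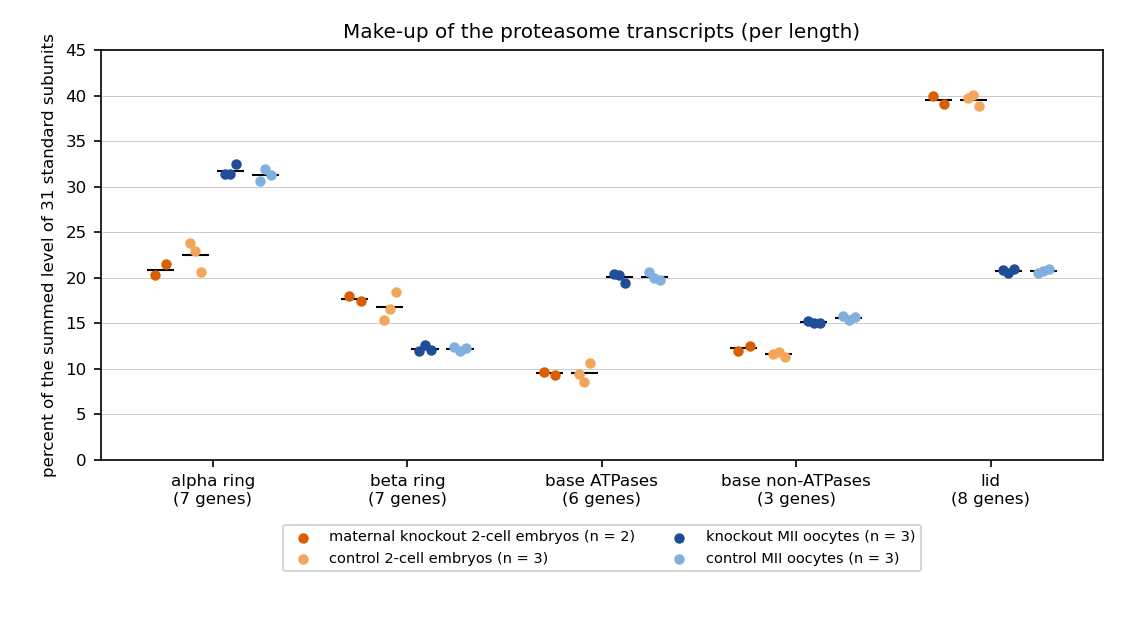
Share of the summed level (RPKM) of the 31 standard subunits held by each subcomplex, in percent, per library (points) with the group mean (line). The lid lies near 40% in embryos and near 21% in oocytes, the base ATPases near 10% and 20%, and the genotypes of a stage lie together.

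The standard subunits were also less unequal in embryos. The level (RPKM) at the 90th percentile of the 31 genes was 7.93 ± 1.11 times that at the 10th in the maternal knockout embryos (SD, n = 2), 8.02 ± 0.77 times in the control embryos, 25.0 ± 2.17 times in the knockout oocytes and 25.9 ± 3.74 times in the control oocytes (SD, n = 3 each). In each of the 5 embryo libraries Psmd7 was the highest gene per length and Psmb3 the lowest, at 75.0 and 0.984 RPKM on average in control embryos. In each of the 6 oocyte libraries Psmd13 was the lowest, at 0.648 RPKM on average in control oocytes, and either Psma7 or Psma2 the highest, at 133.3 and 133.5 RPKM on average in control oocytes.

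Promoter windows are shown for a pair of lid subunits that rose (Psmd14 and Psmd11) and for a base subunit and a base chaperone that fell (Psmd4 and Psmd9), as examples of both directions whose windows hold no annotated exon; they were chosen after their values were seen. Each is the 250 bases before the annotated start (RefSeq, GRCm38.p6), written along the gene's strand, with capitals marking matches on either strand to a CCAAT box (CCAAT), an ETS factor site (CCGGAAG) or the core of the antioxidant response element bound by Nfe2l1 and Nfe2l2 (TGACNNNGC).
Psmd14, chr2:61711444-61711693, plus strand: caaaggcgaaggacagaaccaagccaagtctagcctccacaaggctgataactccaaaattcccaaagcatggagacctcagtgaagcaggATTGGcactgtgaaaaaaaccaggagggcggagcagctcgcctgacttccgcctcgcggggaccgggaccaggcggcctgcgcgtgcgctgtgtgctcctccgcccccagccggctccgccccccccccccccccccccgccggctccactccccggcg
Psmd11, chr11:80428365-80428614, plus strand: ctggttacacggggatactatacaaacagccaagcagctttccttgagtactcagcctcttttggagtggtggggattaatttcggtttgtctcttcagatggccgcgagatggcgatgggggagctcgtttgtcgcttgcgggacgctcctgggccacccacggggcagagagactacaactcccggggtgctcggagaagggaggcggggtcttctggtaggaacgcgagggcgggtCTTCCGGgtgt
Psmd4, chr3:95042615-95042864, minus strand: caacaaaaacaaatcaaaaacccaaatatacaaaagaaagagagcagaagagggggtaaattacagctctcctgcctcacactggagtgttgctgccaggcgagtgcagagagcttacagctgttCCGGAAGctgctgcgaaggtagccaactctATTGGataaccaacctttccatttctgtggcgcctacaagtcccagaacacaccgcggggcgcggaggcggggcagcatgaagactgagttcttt
Psmd9, chr5:123227940-123228189, plus strand: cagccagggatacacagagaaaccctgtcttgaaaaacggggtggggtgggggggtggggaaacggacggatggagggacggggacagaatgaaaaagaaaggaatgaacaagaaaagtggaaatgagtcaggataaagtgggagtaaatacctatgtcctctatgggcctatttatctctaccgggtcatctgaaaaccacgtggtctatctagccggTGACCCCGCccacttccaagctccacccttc

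The CCAAT box thus stood before a gene that rose (Psmd14) and before one that fell (Psmd4), and so did the ETS site (Psmd11 and Psmd4). A window was found for 32 of the 39 members and for 27025 genes in all. The ETS site was in 9 of the 32 members (28.1%, against 7.83% of all genes). Of these, 1 was higher and 8 lower in control embryos than in control oocytes. In that comparison 9 of the 36 members tested were higher and 25 lower, beside 43.1% and 40.0% of all genes tested. The CCAAT box was in 13 members (40.6%, against 37.5%), 2 of them higher, 9 lower, 1 not called and 1 not tested. The antioxidant response element core was in 5 (15.6%, against 11.5%), 1 higher and 4 lower. A site for YY1 (GCCATNTT) was in 2 members (6.25%, against 4.49%), 1 higher and 1 not called. A link between a motif and the direction of change was not tested. A match is a run of letters and not a site shown to be bound.

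Knockout oocytes were compared with control oocytes to see what loss of Daxx in the growing oocyte did to these stored transcripts. None of the 35 members tested was called in edgeR, beside 0.583% of the genes tested. None had an unadjusted p under 0.05 (0 members, beside 5.67% of genes higher and 4.62% lower), and DESeq2 and limma-voom called 0. The median log2 difference of the standard subunits was 0.02, against 0.00 for all genes tested, and 9 of 31 were below 0 (49.9% of all genes). Over the 31 standard subunits the 95% intervals of the log2 difference reached from -0.59 (Psmd13) to 0.76 (Psmb5), the scarcest of them in oocytes. Those of the base ATPases were narrower and stayed between -0.15 and 0.19. Psmb11 had the smallest p of the members in edgeR's quasi-likelihood test with Benjamini-Hochberg adjustment (log2 difference -0.38 ± 0.19 SE, adjusted p = 0.549), with 1.57, 2.13 and 2.14 CPM in the knockout oocytes against 2.52, 2.21 and 2.76 CPM in the control oocytes. Those groups did not overlap. The same held, in the other direction, for Psmd7, Psmb1, Psmb5, Psmd3 and Psma7, 5 of 35 higher and 1 of 35 lower, where 10.1% and 5.66% of all genes had libraries that did not overlap.

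Maternal knockout embryos were compared with control embryos to ask the same of the embryo. None of the 36 members tested was called in edgeR, beside 0.0260% of the genes tested. The unadjusted p was under 0.05 for 4 members, all lower (Psma1, Psma6, Psmd6 and Psmd12), beside 2.08% of genes higher and 1.11% lower, and DESeq2 and limma-voom called 0. These 4 had log2 differences of -0.33, -0.42, -0.52 and -0.36. In sign, without a test, 26 of 36 members were below 0 (49.6% of all genes tested), and the median over the standard subunits was -0.17, against 0.00 for all genes. That median was -0.08 without maternal knockout embryo replicate 3 and also without control embryo replicate 3, and the 4 members at unadjusted p under 0.05 became 1 without maternal knockout embryo replicate 3 or control embryo replicate 1 and 2 without maternal knockout embryo replicate 2. The 8 oocyte markers summed to 1960 and 1967 CPM in the maternal knockout embryos against 1477 to 1781 CPM in the control embryos, without overlap; their part in these differences was not tested. Psmd6 (chromosome 14, 14112185 to 14120945), a lid scaffold, had the smallest p in edgeR's quasi-likelihood test with Benjamini-Hochberg adjustment, with 28.9 and 28.3 CPM in the maternal knockout embryos against 40.3, 36.8 and 43.7 CPM in the control embryos (log2 difference -0.52 ± 0.17 SE, adjusted p = 1). Both knockout libraries lay below all 3 controls for this gene, as they did for Psma1, Psma4, Psma6, Psmd12 and Psmd13, 6 of 36 members lower, where 6.38% of all genes had such a gap; none was higher in that sense (11.4% of all genes). The intervals were wider than in oocytes, from -1.25 to 0.76 on the log2 scale over the standard subunits.

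**Figure D4:**
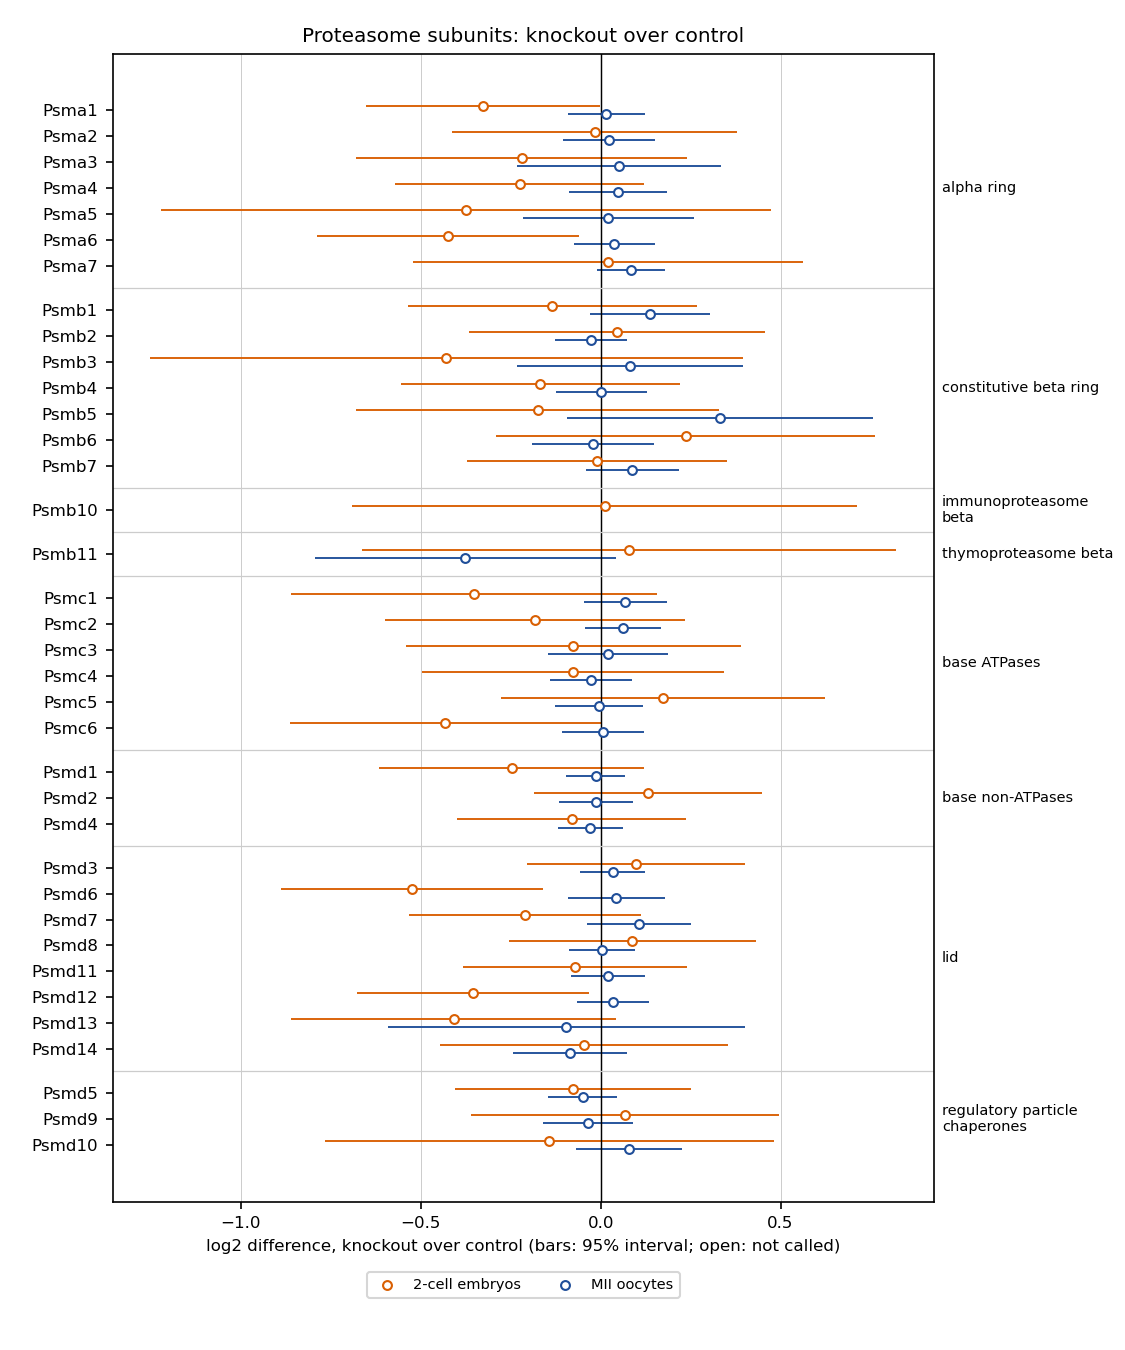
Log2 difference of knockout over control for each member tested, in 2-cell embryos (orange) and MII oocytes (blue), with 95% intervals; open points were not called. Most oocyte values lie close to 0 with short intervals, those of scarce genes such as Psmb5 and Psmd13 being longer. Most embryo values lie left of 0 with long intervals, the lowest being Psmd6 at -0.52.

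The difference of the genotype effect between the stages, embryos minus oocytes, was tested in 1 fit of all 11 libraries. No member was called of 36 tested, beside 0.0118% of all genes. The unadjusted p was under 0.05 for 5, all with a lower value in embryos (Psmd6, Psma6, Psmd12, Psma1 and Psmc6), beside 2.53% of genes higher and 2.88% lower, and DESeq2 and limma-voom called 0. Psmd6 again had the smallest p in edgeR's quasi-likelihood test with Benjamini-Hochberg adjustment, with a difference of -0.58 ± 0.14 (SE, adjusted p = 0.913). In oocytes Psmd6 stood at 65.8, 69.4 and 67.5 CPM in the knockout and at 59.4, 66.8 and 67.8 CPM in the control, groups that overlapped. Psmb1, called on the control side of the stage change alone, had a difference of -0.28 (adjusted p = 0.936).

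Other genes of the pathway were listed apart from the subunits, 37 of 40 of them in the table. Of these, 16 were higher and 16 lower in control embryos than in control oocytes and 5 were not called, with a median log2 change of -0.10; over all genes tested, 43.1% were higher and 40.0% lower, so the shares were near those of all genes. By edgeR none was called between the genotypes in oocytes (0 of 35 tested, 3 at unadjusted p under 0.05, beside 5.67% of genes higher and 4.62% lower) or in embryos (0 of 37, 1 at unadjusted p under 0.05, beside 2.08% higher and 1.11% lower). Of 5 other activators and inhibitors of the core, 3 rose and 2 fell. Psme4, the large single-chain activator, rose by 1.85 on the log2 scale (± 0.11 SE, adjusted p = 1.44e-08), at 1536 and 1475 CPM in the maternal knockout embryos, 1894, 1495 and 1592 CPM in the control embryos, 457, 424 and 484 CPM in the knockout oocytes and 445, 436 and 481 CPM in the control oocytes. Psme2 rose by 2.54 (± 0.26 SE), and its partner Psme1 was called higher too, at 2.48 to 2.73 CPM in control embryos against 0 to 0.0614 CPM in control oocytes, having passed the low-count filter through the embryos. Psme3, a further activator of that family, fell by 0.22, and Psmf1, an inhibitor of the core, fell by 3.37 (± 0.11 SE, adjusted p = 1.15e-10).

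Of the 5 chaperones of core assembly, 4 fell (Psmg1, Psmg3, Psmg4 and Pomp, by 0.83 to 3.81 on the log2 scale) and Psmg2 rose by 4.28 (± 0.34 SE), at 2.95 to 3.65 CPM in control embryos against 0.123 to 0.201 CPM in control oocytes; it passed the low-count filter through the embryos. The proteasome partners Adrm1 and Sem1, a ubiquitin receptor and a small lid subunit, were not called (-0.15 and 0.19). Among enzymes bound to the proteasome, the deubiquitinases Usp14 and Uchl5 and the adaptor Ecpas fell by 1.64, 0.88 and 1.00, and the ligase Ube3c rose by 0.79. Of the 7 shuttle and stress factors 4 rose and 2 fell, with Zfand5 at 1.11, Zfand2a at 1.11 and Ubqln1 at -0.87. Nfe2l1 and Nfe2l2, transcription factors of proteasome genes in mammals, rose by 0.28 and 0.81, while Akirin2, which brings proteasomes into the nucleus, fell by 1.38. Of the ubiquitin genes, Rps27a rose by 1.39 and Ubb fell by 1.46, as did the activating enzyme Uba1, by 1.15. Of the unfoldase Vcp and its cofactors, Vcp rose by 1.17, Ufd1 rose by 0.98 and Nploc4 fell by 1.36.

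Among 13571 genes outside the family, those whose log2 CPM followed the mean of the standard subunits most closely over the 11 libraries were Cox4i1 (Pearson's r 0.999), Nup93 (0.998), Cox19 (0.997), Zcchc17 (0.997) and Cox17 (0.997). Cox4i1 is a subunit of cytochrome c oxidase and Cox17 and Cox19 serve its assembly; Nup93 is a nuclear pore protein. Cox4i1 had 24.5 and 22.5 CPM in the maternal knockout embryos, 26.1, 24.6 and 33.1 CPM in the control embryos, 74.4, 81.0 and 77.0 CPM in the knockout oocytes and 72.3, 75.7 and 72.4 CPM in the control oocytes. The 11 libraries fall into the 2 stages, so that a gene with a like drop between them scores high here.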

How the data were processed

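The authors deposited whole-number read counts for 24421 genes by Entrez identifier in 11 libraries, with a width per gene in bases. Libraries were made with the SoLo RNA-Seq system (NuGEN), per the labels' protocols; STAR 2.5.0a, SAMtools and GRCm38 (mm10) are named per the submitters' processing notes. The counting program, its annotation, its use of strand and its handling of reads shared with near-identical copies are, in the sources used here, not given, so values of overlapping genes and of genes with processed copies are uncertain. Symbols and coordinates came from the RefSeq table of GRCm38.p6 (24387 identifiers matched, 34 did not), promoter windows from RefSeq of the same build, and exon overlaps from GENCODE M21.

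Maternal knockout embryos have replicates 2 and 3; replicate 1 is not analysed here. The labels do not say whether pools of a group shared females, so p-values measure the spread between pools. CPM is a count per 1000000 of the library's counted reads, and RPKM is CPM per kilobase of the deposited width, both computed here. With 17978192 to 39798586 reads per library, 3 counts, the limit that 0 allows, correspond to 0.0754 to 0.167 CPM; these limits cover counting error only. Tests used edgeR 4.0.16 (R 4.3.3) on the counts of the groups compared: filterByExpr, TMM factors, robust quasi-likelihood F tests, Benjamini-Hochberg adjustment over all genes tested, threshold 0.05. The SE is the size of the log2 change over the square root of F, and intervals are 95%. Alternatives were RLE, upper-quartile and no scaling factors, other low-count filters, DESeq2 1.42.0, limma-voom (limma 3.58.1), all libraries in 1 fit, a replicate block, each library left out, and counts not divided by width. The scripts were tested on simulated counts. Chi-square per degree of freedom between replicates was 4.86 to 34.3, so none was treated as a duplicate. The members, lists and tests were chosen with earlier results of these data known. Library values are printed for the members of the smallest p between genotypes, for the 3 largest rises and falls between control stages among genes averaging 10 CPM or more in the group with the larger mean, and for the proteolytic beta subunits, their variants, Psma7, Psma8, Psmd4 and Psmd14.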

Additional observations from a re-analysis of the deposited data

How the results depend on the processing

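Over 15 alternatives, 33 of the 34 calls between control embryos and control oocytes held in every one, and all 33 calls between maternal knockout embryos and knockout oocytes held in all 14 of theirs; no member changed direction as a call. Psmb4 lost its call between control stages with RLE size factors (log2 change -0.30, adjusted p = 0.05003). On the knockout side, Psma4 gained one without the low-count filter, with all 11 libraries in 1 fit, without maternal knockout embryo replicate 3 and without knockout oocyte replicate 1, and Psmb1 gained one without maternal knockout embryo replicate 3 (log2 change 0.33, adjusted p = 0.0258). Between genotypes and for the difference between stages the count of called members was 0 under every alternative. In embryos the number of members at unadjusted p under 0.05 ran from 1 to 7, and the median of the standard subunits from -0.19 to -0.08, the values nearest 0 without maternal knockout embryo replicate 3 or control embryo replicate 3. RLE factors moved the median stage change of all genes to 0.17 in controls.

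Without division by gene width, the core held 26.7% of the summed level of the standard subunits in maternal knockout embryos, 27.7% in control embryos, 34.2% in knockout oocytes and 33.7% in control oocytes, so the level of the share depends on the width and the order of the stages in the core share does not. The beta ring's shares then overlapped between stages and the lid, in place of the alpha ring, was largest in oocytes. Deviations of same-numbered libraries from their group means correlated at -0.23, 0.26 and 0.089 in oocytes and at -0.21 and -0.076 in embryos. Deviations within a group sum to 0, and those of the 2 maternal knockout embryo libraries mirror each other. These values therefore cannot show whether the numbers mark pairs, and the main tests did not take them as pairs. A replicate block left 9 higher and 25 lower members between control stages, 8 and 25 on the knockout side and 0 in each test of genotype. Having 2 libraries, the maternal knockout embryos add little to the estimate of spread, and Psmb8, Psmb9 and Psma8 rest on a few reads. Without the low-count filter Psmb8 made a further lower call between control stages (26 in all).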
